A study of Mus musculus with 6 samples.

Results

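The 10 genes described here encode proteins that bring iron into the cell, store it, release it and free it from haem. They are Tfrc, Steap3, Slc11a2, Fth1, Ftl1, Ncoa4, Slc40a1, Hmox1, Ireb2 and Aco1. Each was taken by its symbol from a table of 55487 mouse genes, each symbol stood in 1 row, and all 10 were among the 13405 genes with enough counts to test. Their levels were measured by RNA sequencing in 4T1 cells, a mouse mammary carcinoma line that arose in the BALB/c strain. The cells had received 10 µM cepharanthine (CEP) for 12 h, or the same volume of the solvent dimethyl sulfoxide (DMSO), with 3 libraries in each group. Cepharanthine is a plant alkaloid that, as a weak base, can collect in acidic compartments of the cell. All libraries came from this single cultured line, and nothing in the labels says whether the 3 replicates were separate cultures, so p-values measure the spread between these libraries, which may be technical.

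Iron reaches most cells bound to transferrin, which enters endosomes on the transferrin receptor. In the acidic endosome the iron is released and reduced, and it crosses the membrane through a divalent metal transporter. Iron that is not used at once is kept inside shells of ferritin, which are opened again when they are carried to lysosomes. Haem is a further source of iron, set free by haem oxygenase. When iron is scarce, the iron regulatory proteins bind hairpins in messenger RNA called iron-responsive elements. Binding in the 3′ untranslated region protects the receptor transcript from decay, and binding in the 5′ untranslated region blocks translation of the ferritin and ferroportin transcripts, an effect that transcript counts do not show.

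Total counts ran from 15299261 to 19411816 in CEP libraries and from 15334482 to 19655010 in DMSO libraries. Levels are given in CPM (a gene's counts scaled to a common library size) after TMM normalisation, which sets the library sizes so that most genes centre on the same level. On the first principal component, CEP replicate 1 scored 9.17, against 25.1 and 27.1 for CEP replicates 2 and 3 and -21.3 to -19.9 for the DMSO libraries. CEP replicate 1 thus stood apart from its group, and results that rest on it are given with and without it. All 7 epithelial markers listed were detected, with a summed level of 3910 to 4210 CPM in CEP libraries and 4300 to 4460 CPM in DMSO libraries. By the test described below, 4 of these markers rose (Cldn4, Krt19, Epcam and Cdh1) and 3 fell (Krt8, Krt18 and Krt7, the most abundant). Over all genes tested, 20.1% rose and 18.2% fell. The markers had a median log2 fold change of 0.39, so their lower sum reflects the 3 that fell. Of the 8 macrophage markers, Adgre1, C1qa, C1qb and C1qc were at 0 in every library. Nearly all of that list's sum of 39.2 to 54.9 CPM in CEP libraries and 15.3 to 19.9 CPM in DMSO libraries was Cd68, a lysosomal membrane glycoprotein gene. Of the 8 erythroid markers, the 4 globin genes were at 0 in every library, and the list summed to 1.81 to 3.06 CPM in CEP libraries and 1.12 to 2.30 CPM in DMSO libraries. Fibroblast markers summed to 85.7 to 101 CPM in CEP libraries and 62.8 to 69.5 CPM in DMSO libraries, nearly all of it Pdgfra, with Lum at 0. Endothelial markers stayed under 1 CPM in sum, with Kdr at 0.

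Among the 10 genes, those of iron uptake were higher in CEP-treated cells: Steap3 3.05-fold, Slc11a2 1.80-fold and Tfrc 1.21-fold. In a wider list of iron uptake and endosomal reduction, which includes them, 6 of 12 tested genes rose and 2 fell. Those that rose were these same genes, Mcoln1, Slc39a14 and Slc11a1. Slc11a1 had enough counts to test only through the CEP libraries, so the list is no separate evidence for the genes named first. Hmox1, the gene of inducible haem oxygenase, was 1.71-fold higher and the ferritin light chain gene Ftl1 1.30-fold higher. The ferritin receptor gene Ncoa4 fell to 0.855 of its DMSO level. Fth1, Slc40a1, Ireb2 and Aco1 were not past the threshold. So 5 of the 10 genes rose, 1 fell and 4 missed the threshold, an adjusted p under 0.05 by edgeR's quasi-likelihood test over 13405 genes. Of all genes tested, 38.2% passed in either direction, 20.1% higher and 18.2% lower. Past the test with a change of 2-fold or more stood 1 of the 10 genes, Steap3, and 2.9% of all genes tested. The median log2 fold change of the 10 genes was 0.12, against 0.0083 over all genes tested. Libraries of the 2 treatments took separate ranges for 7 of the 10 genes, with CEP higher for 5 and lower for Ncoa4 and Slc40a1. Of all genes tested, 49.9% had separate ranges, 25.2% with CEP higher and 24.7% with CEP lower. In bulk RNA, fewer cells of a type and less RNA per cell cannot be told apart, and the part that the marker levels above play in these differences was not tested.

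**Figure D1:**
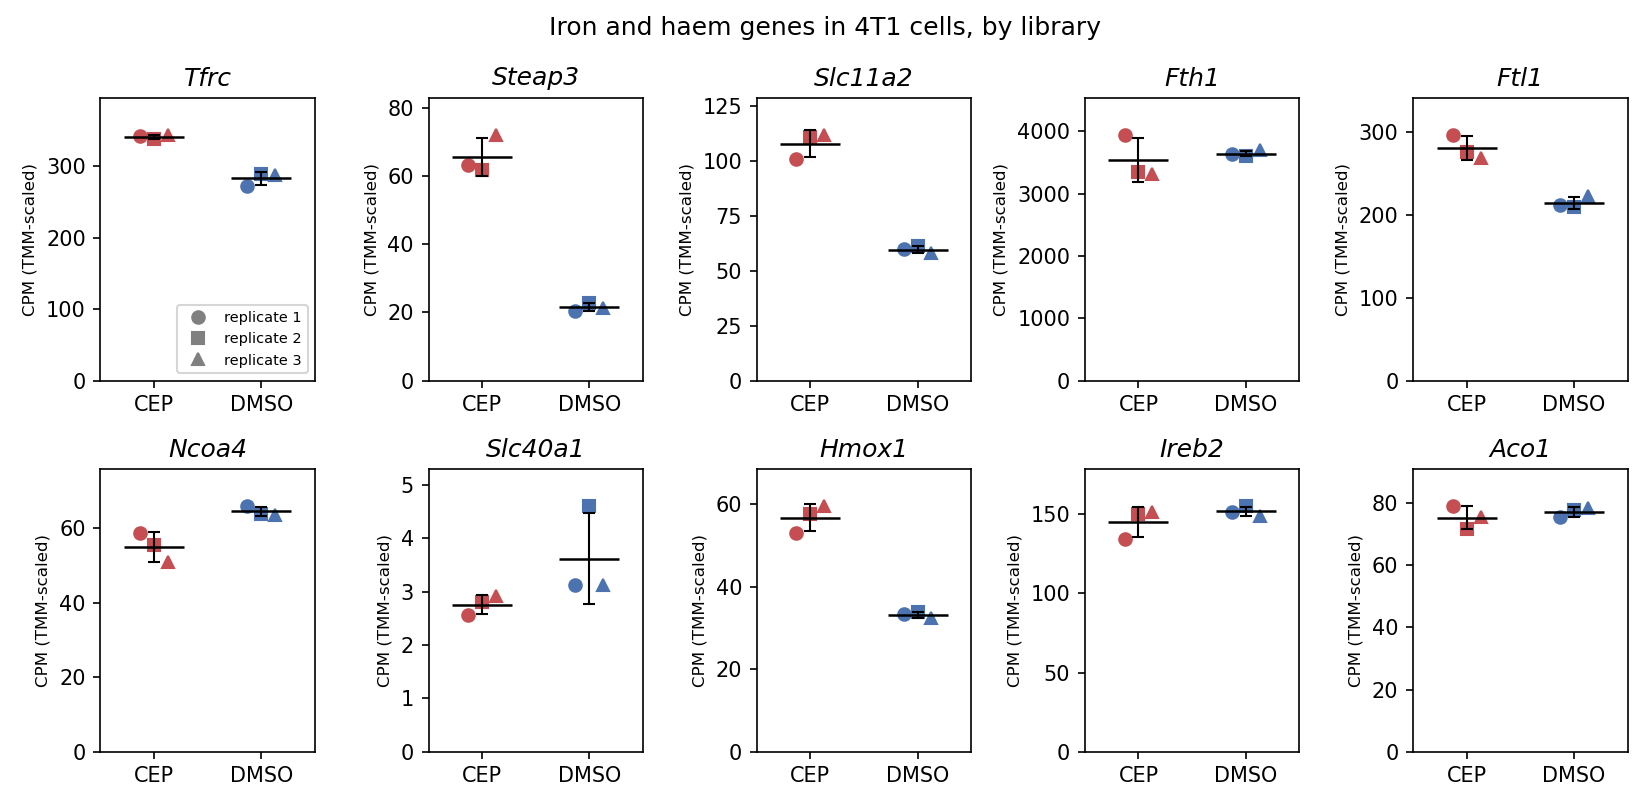
Level of each gene in TMM-scaled CPM (y axis, from 0, a separate scale in each panel) in the CEP libraries (left, red) and DMSO libraries (right, blue). Points are libraries, with the symbol giving the replicate number; the long bar is the mean and the whisker the SD (n = 3 each). Steap3, Slc11a2 and Hmox1 show wide gaps between the groups, whereas CEP replicate 1 lies above and CEP replicates 2 and 3 lie below the DMSO libraries for Fth1.

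**Figure D2:**
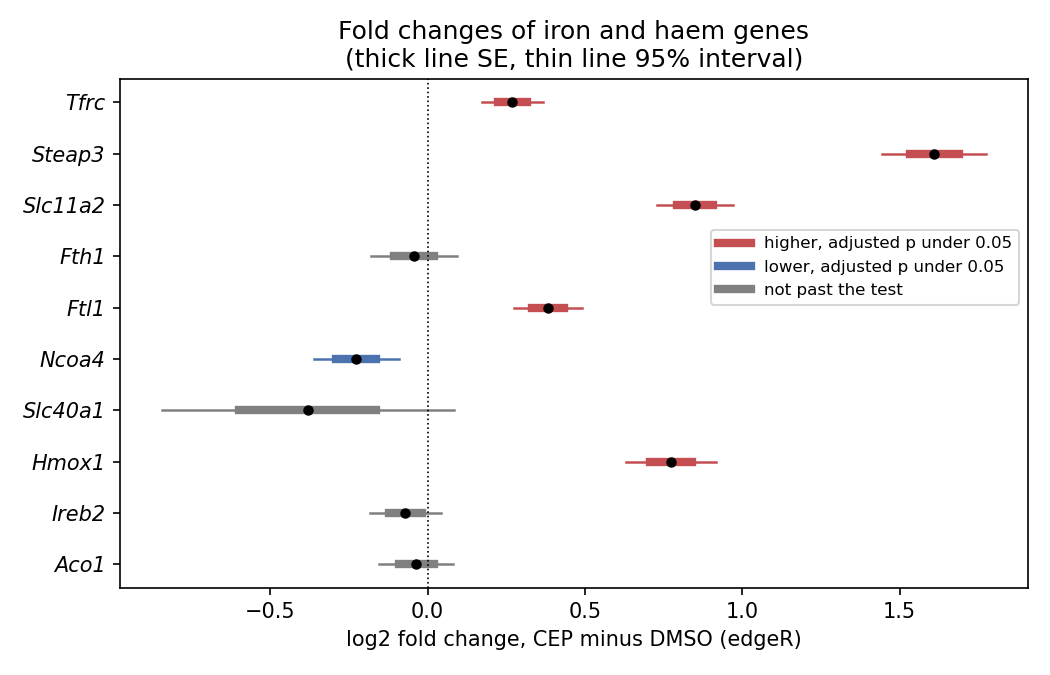
Log2 fold change, CEP minus DMSO, of the 10 genes (x axis), with SE (thick line) and 95% interval (thin line) from the edgeR fit, grouped from top to bottom by uptake, storage, export, haem breakdown and regulation. Steap3 lies farthest right at 1.61, and the intervals of Fth1, Slc40a1, Ireb2 and Aco1 include 0.

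The iron-responsive elements are shown because they sort the transcripts by how iron acts on them. The search pattern was CNNNNNCAGTGN followed by 5 bases, where the last base of the loop was not G and the 5 bases on either side of the loop could pair, G with T allowed. It was run on mouse transcripts of GENCODE release M21 (build GRCm38), on the transcript strand alone. The pattern stood in the longest coding transcript of 0.938% of 21866 protein-coding genes, 0.0732% with it in the 5′ untranslated region and 0.421% in the 3′ untranslated region. Each site is printed 5′ to 3′ with 6 bases either side of the matched part, and the loop is in capitals. The 5′ untranslated regions of Fth1 (chr19:9982732-9982760, plus strand), Ftl1 (chr7:45459779-45459807, minus strand) and Slc40a1 (chr1:45925465-45925493, minus strand) held 1 match each.
Fth1: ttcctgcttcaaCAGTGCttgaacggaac
Ftl1: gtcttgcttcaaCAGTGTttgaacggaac
Slc40a1: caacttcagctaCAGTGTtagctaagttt
The sites of Ftl1 and Fth1 were identical at 26 of 29 bases. Counted from 1 at the 5′ end of the printed site, with the base of Ftl1 first, they differed by G1T, T4C and T18C, and the last of these lies in the loop. The 3′ untranslated region of Tfrc held 4 matches, all on the plus strand of chromosome 16, between 32631219 and 32631738.
Tfrc site 1: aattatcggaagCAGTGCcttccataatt
Tfrc site 2: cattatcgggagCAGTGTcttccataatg
Tfrc site 3: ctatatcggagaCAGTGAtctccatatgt
Tfrc site 4: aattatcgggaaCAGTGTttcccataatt
No coding transcript of Slc11a2, Ireb2, Aco1, Ncoa4, Hmox1 or Steap3 held the strict pattern. For Slc11a2, which has a known element in the 3′ untranslated region of some isoforms, that says only that these letters and pairs were not found, and the counts here sum all isoforms.

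Tfrc (ENSMUSG00000022797, chromosome 16, 32608920 to 32632794 on GRCm38, as are all positions), the gene of the transferrin receptor, had 342, 338 and 344 CPM in CEP libraries, against 273, 289 and 288 CPM in DMSO libraries. The groups did not overlap, and the CEP libraries were close to each other. The log2 fold change was 0.27 ± 0.0453 (SE, adjusted p = 3.65e-04).

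Steap3 (ENSMUSG00000026389, chromosome 1, 120190757 to 120272705) encodes the endosomal reductase that turns ferric into ferrous iron. It had 63.2, 61.9 and 72.1 CPM in CEP libraries, against 20.4, 22.8 and 21.4 CPM in DMSO libraries. Every CEP library was more than 2-fold above every DMSO library. The log2 fold change was 1.61 ± 0.0775 (SE, adjusted p = 3.72e-09), the 76th highest of 13405 genes. Steap3 has relatives that are also metalloreductase genes or closely related to them. Steap2 was lower in CEP libraries, at 333, 328 and 311 CPM, against 376, 389 and 372 CPM in DMSO libraries (log2 fold change -0.23 ± 0.0468, SE, adjusted p = 0.00162). Steap1 had 47.0, 55.5 and 58.0 CPM in CEP libraries and 57.4, 60.0 and 60.9 CPM in DMSO libraries. These overlapped, and the log2 fold change of -0.15 did not pass (adjusted p = 0.115), though it did without CEP replicate 3 (-0.22, adjusted p = 0.0484, range over alternatives 0.0484 to 0.273). Steap4 had too few counts to test, 19 in all in CEP libraries and 15 in DMSO libraries.

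Slc11a2 (ENSMUSG00000023030, chromosome 15, 100387898 to 100425072) encodes DMT1, which carries ferrous iron out of the endosome. It had 101, 111 and 112 CPM in CEP libraries, against 59.9, 61.4 and 58.0 CPM in DMSO libraries. Every CEP library lay well above every DMSO library, and the log2 fold change was 0.85 ± 0.0568 (SE, adjusted p = 8.64e-08). Per kilobase of exon, the ratio of Tfrc to Slc11a2 counts was 2.10, 1.89 and 1.91 in CEP libraries, against 2.81, 2.92 and 3.07 in DMSO libraries. In none of the CEP libraries did this ratio reach the DMSO range. The ratio itself depends on the exon lengths: with those of all annotated exons joined, chosen after seeing the data, it was 3.49, 3.14 and 3.17 in CEP libraries and 4.67, 4.84 and 5.10 in DMSO libraries.

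**Figure D3:**
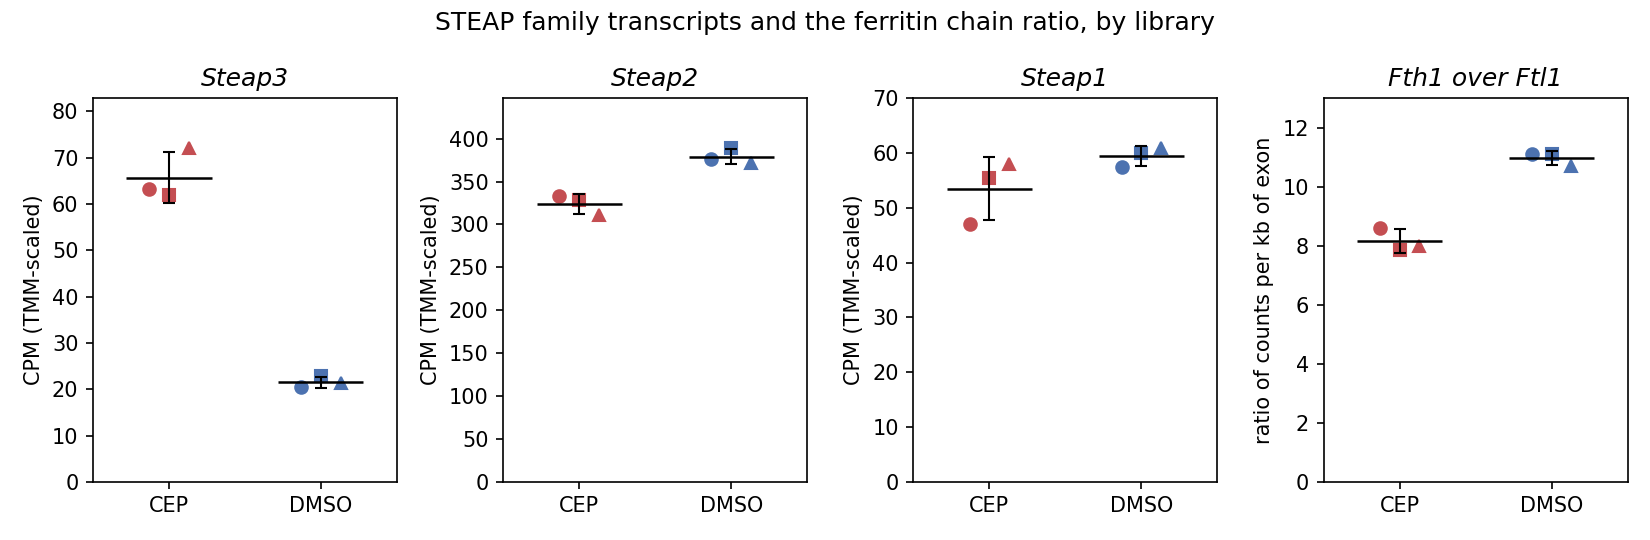
Levels of Steap3, Steap2 and Steap1 in TMM-scaled CPM, and the ratio of Fth1 to Ftl1 counts per kilobase of exon (y axes, from 0), in CEP libraries (left, red) and DMSO libraries (right, blue). Points are libraries, bars means and whiskers SD (n = 3 each); Steap3 is higher and Steap2 lower in CEP libraries, and the ferritin chain ratio, by the exon lengths of the table, is 7.86 to 8.61 in CEP libraries and 10.7 to 11.1 in DMSO libraries.

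Of 15 genes listed for iron uptake and endosomal reduction, 12 were tested: 6 rose, 2 fell and 4 missed the threshold. Those that rose include Tfrc, Steap3 and Slc11a2. Over the 12 tested genes the median log2 fold change was 0.25. For this list and those below, the shares to set beside the counts are 20.1% higher and 18.2% lower over all genes tested. Mcoln1, the gene of a lysosomal cation channel that passes iron and calcium, rose to a mean of 75.3 CPM in CEP libraries, against 38.6 CPM in DMSO libraries (log2 fold change 0.97 ± 0.0755, SE, n = 3 each, edgeR adjusted p = 3.65e-07). Slc11a1, the gene of a metal transporter known from macrophage phagosomes, rose at a very low level. It had 16, 13 and 25 counts in CEP libraries, against 4, 2 and 5 counts in DMSO libraries (adjusted p = 0.00175), and it passed the filter on low counts through the CEP libraries alone, so it had to be higher there. With a filter of at least 1 CPM in 3 libraries, 5 listed genes rose. Tfr2, the relative of Tfrc known from liver and red cell precursors, was at 0 in all libraries. Beside Steap2, Exoc6, which in mice is needed for transferrin recycling in red cell precursors, fell (log2 fold change -0.34, adjusted p = 0.0161). That call ended when any of CEP replicates 2 and 3 and DMSO replicate 2 was left out (adjusted p = 0.0584, 0.0812 and 0.0644, range over alternatives 1.46e-05 to 0.0812). Only 1 listed gene fell when CEP replicate 2 or DMSO replicate 2 was left out.

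Ferritin is built from heavy chains, which oxidise iron, and light chains, which help it mineralise. Fth1 (ENSMUSG00000024661, chromosome 19, 9980598 to 9985098), the heavy chain gene, had 3942, 3346 and 3316 CPM in CEP libraries, against 3631, 3604 and 3692 CPM in DMSO libraries. CEP replicate 1 lay above the DMSO range and the other CEP libraries below it. The log2 fold change was -0.04 with a 95% interval of -0.18 to 0.09 (adjusted p = 0.625). Without CEP replicate 1, Fth1 passed as lower (-0.14, adjusted p = 3.61e-04), and without CEP replicate 3 the value was 0.00101 (adjusted p = 0.994, range over alternatives 3.61e-04 to 0.994).

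Ftl1 (ENSMUSG00000050708, chromosome 7, 45457944 to 45459884), the light chain gene, had 297, 276 and 269 CPM in CEP libraries, against 212, 210 and 223 CPM in DMSO libraries. The groups did not overlap, and here too CEP replicate 1 was the highest. The log2 fold change was 0.38 ± 0.0505 (SE, adjusted p = 5.01e-05). Per kilobase of exon, the ratio of Fth1 to Ftl1 counts was 8.61, 7.86 and 7.99 in CEP libraries, against 11.1, 11.1 and 10.7 in DMSO libraries. The excess of heavy chain over light chain transcript counts was thus smaller in every CEP library, and the proteins were not measured. With joined exon lengths the same ratio was 5.13, 4.69 and 4.76 in CEP libraries and 6.62, 6.64 and 6.39 in DMSO libraries, so its size depends on the length used and the order of the groups does not. The mouse genome holds copies of both genes. The copies whose symbols mark them as ferritin pseudogenes were counted at very low levels. The highest was Ftl1-ps1, with 85, 48 and 59 counts in CEP libraries and 45, 49 and 46 counts in DMSO libraries. Copies under other symbols were not looked for. Adding the counts of the copies so marked gave log2 fold changes of 0.38 for Ftl1 and -0.04 for Fth1. Reads dropped for matching several copies cannot be seen in the table. A gene annotated on the opposite strand, Gm10252, shares 355 exonic bases with Ftl1, and it averaged 0.729 CPM in CEP libraries and 0.381 CPM in DMSO libraries.

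Ncoa4 (ENSMUSG00000056234, chromosome 14, 32159865 to 32179855) encodes the receptor that takes ferritin to the lysosome, where its iron is released. It had 58.9, 55.5 and 50.9 CPM in CEP libraries, against 66.0, 64.0 and 63.7 CPM in DMSO libraries. Each CEP library lay below each DMSO library. The log2 fold change was -0.23 ± 0.0629 (SE, adjusted p = 0.0109). The call ended without CEP replicate 3 (-0.17, adjusted p = 0.0609, range over alternatives 7.41e-05 to 0.0609). Of 7 genes listed for ferritin storage and turnover, 6 were tested: 1 rose (Ftl1), 1 fell (Ncoa4) and 4 did not pass, with a median log2 fold change of -0.05. The mitochondrial ferritin gene Ftmt was at 0. Without CEP replicate 1 the number that fell was 4, and without CEP replicate 3 it was 0. Of all genes tested, 2434 fell with all libraries, 3514 without CEP replicate 1 and 1783 without CEP replicate 3.

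Slc40a1 (ENSMUSG00000025993, chromosome 1, 45908068 to 45926523) encodes ferroportin, the known exporter of iron from mammalian cells. It was the least abundant of the 10 genes, with 49, 43 and 50 counts in CEP libraries and 53, 70 and 61 counts in DMSO libraries. These correspond to 2.56, 2.80 and 2.91 CPM in CEP libraries and 3.12, 4.60 and 3.12 CPM in DMSO libraries. All CEP values lay below the DMSO values, but the log2 fold change of -0.38 had an interval of -0.85 to 0.08 and did not pass (adjusted p = 0.182), so at this depth a fall to 0.557 of the DMSO level and a rise of 1.06-fold both stay within the interval. Of 8 genes listed for iron export, 2 were tested, and Heph, Hephl1, Hamp and Hjv were at 0. The other tested gene, Cp, encodes the ferroxidase ceruloplasmin and rose (log2 fold change 0.74, adjusted p = 0.00864). Cp had 358, 519 and 509 CPM in CEP libraries, against 288, 278 and 264 CPM in DMSO libraries, with CEP replicate 1 closest to the DMSO range.

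Hmox1 (ENSMUSG00000005413, chromosome 8, 75093621 to 75100589) encodes the inducible enzyme that splits haem into iron, carbon monoxide and biliverdin. It had 53.0, 57.6 and 59.5 CPM in CEP libraries, against 33.3, 33.8 and 32.4 CPM in DMSO libraries. The DMSO libraries were close together, far below the lowest CEP library. The log2 fold change was 0.77 ± 0.0665 (SE, adjusted p = 9.52e-07). Hmox2, the gene of the constitutive enzyme, stood at 40.9, 40.9 and 39.6 CPM in CEP libraries, against 46.4, 44.2 and 45.4 CPM in DMSO libraries. Its fall (log2 fold change -0.16, adjusted p = 0.0487) was only just past the threshold. Leaving out any library but CEP replicate 1 ended it, with adjusted p from 0.0799 without DMSO replicate 2 to 0.141 without CEP replicate 3 (CEP replicate 2 0.0952, DMSO replicate 1 0.12, DMSO replicate 3 0.125, range over alternatives 0.018 to 0.141). DESeq2 and the absence of a filter on low counts ended it as well (adjusted p = 0.0912 and 0.0892).

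Of 10 genes listed for haem breakdown and transport, 8 were tested: 2 rose, 2 fell and 4 did not pass, with a median log2 fold change of -0.15. Flvcr1, known as a haem exporter gene, rose to 34.6 ± 3.19 CPM in CEP libraries, against 24.6 ± 2.02 CPM in DMSO libraries (SD, n = 3 each; adjusted p = 6.51e-04). Abcg2, the gene of an efflux pump that also carries porphyrins, fell (log2 fold change -0.34, adjusted p = 0.0129), a call that ended with CEP replicate 3 left out (adjusted p = 0.0591, range over alternatives 0.00608 to 0.0591). Blvra, the gene of a biliverdin reductase, which acts next after haem oxygenase, was not past the threshold (-0.28, adjusted p = 0.0698). It was lower past the test on leaving out CEP replicate 1 (-0.46, adjusted p = 1.10e-04), with upper quartile scaling (0.0458) and with no filter on low counts (0.022), and the range over alternatives was 1.10e-04 to 0.242. The number of listed genes that fell was 4 without CEP replicate 1, 0 without CEP replicate 3, and 1 on leaving out CEP replicate 2 or either of DMSO replicates 2 and 3. It was 4 with upper quartile scaling and 1 with DESeq2.

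Ireb2 and Aco1 encode the iron regulatory proteins IRP2 and IRP1. Ireb2 (ENSMUSG00000032293, chromosome 9, 54863789 to 54912530) had 134, 150 and 151 CPM in CEP libraries, against 151, 155 and 149 CPM in DMSO libraries. Aco1 (ENSMUSG00000028405, chromosome 4, 40143081 to 40198338), whose product is a cytosolic aconitase when it carries an iron-sulfur cluster, had 78.9, 71.5 and 75.3 CPM in CEP libraries, against 75.4, 77.5 and 78.4 CPM in DMSO libraries. Both overlapped between the groups, with CEP replicate 1 the lowest library for Ireb2 and the highest for Aco1. The log2 fold changes were -0.07 for Ireb2 (95% interval -0.18 to 0.04, adjusted p = 0.317) and -0.04 for Aco1 (95% interval -0.15 to 0.08, adjusted p = 0.637). On the fold scale these 95% intervals run from 0.880 to 1.03 of the DMSO level for Ireb2 and from 0.900 to 1.06 for Aco1. They rest on the spread between these libraries, which may be technical. IRP2 is controlled chiefly by degradation of the protein, which counts do not show. Of 5 genes listed for the iron regulatory proteins and their turnover, all were tested: 1 rose, 2 fell and 2 did not pass, with a median of -0.07. Fbxl5, the gene of the iron-sensing ligase subunit that marks IRP2 for degradation, rose to 116, 139 and 139 CPM in CEP libraries, against 100, 102 and 104 CPM in DMSO libraries (log2 fold change 0.36, adjusted p = 6.26e-04). Genes of the ligase's shared subunits fell, Skp1a by 0.31 (adjusted p = 3.46e-04) and Cul1 by 0.19 on the log2 scale (adjusted p = 0.0189). The call of Cul1 ended when any of CEP replicates 2 and 3 and DMSO replicates 1 and 3 was left out (adjusted p = 0.1, 0.0674, 0.0824 and 0.0722, range over alternatives 7.96e-06 to 0.1), and each of these left 1 listed gene that fell.

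**Figure D4:**
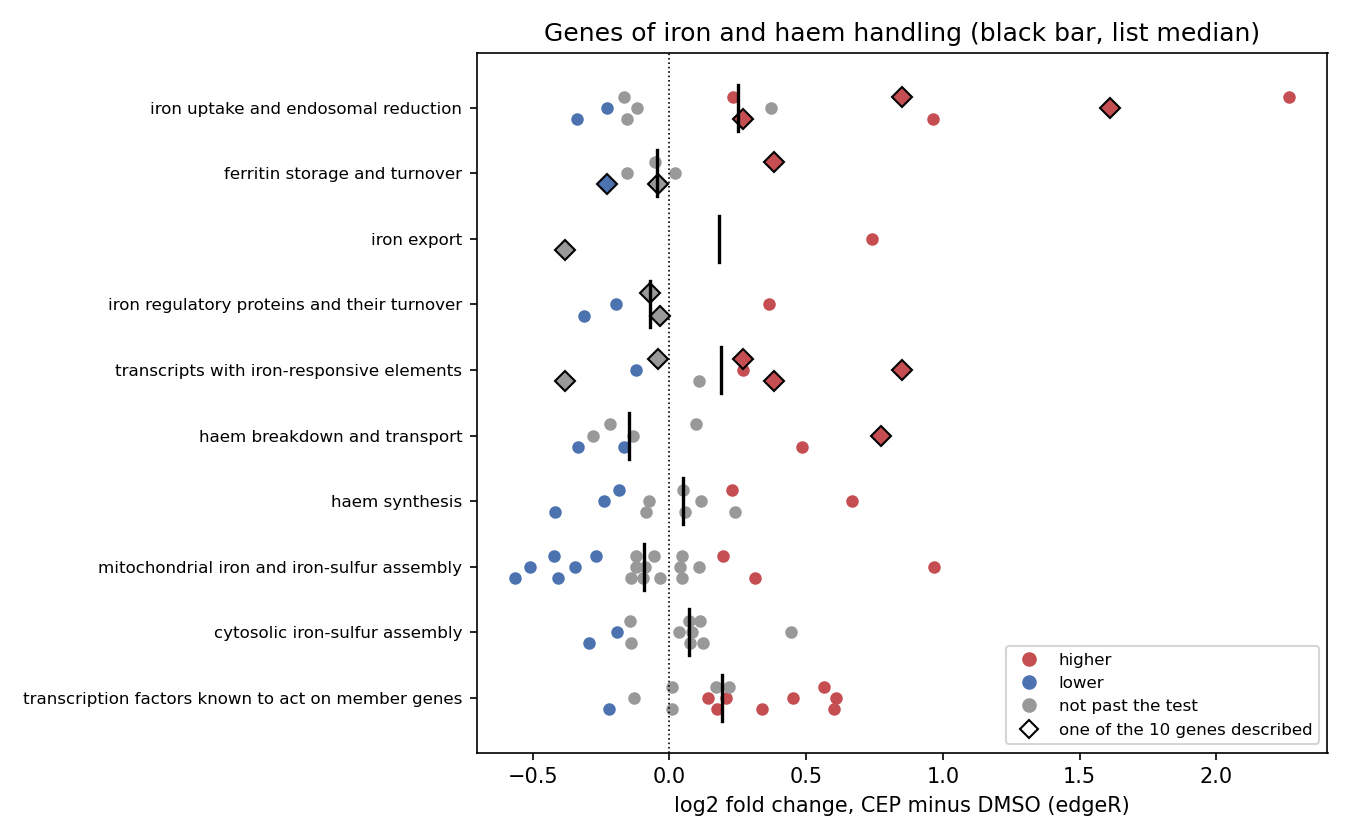
Log2 fold change, CEP minus DMSO (x axis), of every tested gene in 10 lists of iron and haem handling (rows), coloured by call, with the list median as a black bar. Diamonds are the 10 genes described here; genes in several lists appear in each. The point farthest right is Slc11a1, which passed the filter through the CEP libraries alone, followed by Steap3. In the mitochondrial list 6 of 20 tested genes fell and 3 rose, beside 18.2% lower and 20.1% higher over all genes tested.

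Of 10 genes listed as carrying an iron-responsive element, 8 were tested: 4 rose, 1 fell and 3 missed the threshold, with a median log2 fold change of 0.19. Of the genes listed with the element in the 3′ untranslated region, Tfrc and Slc11a2 rose, as did Cdc14a, a phosphatase gene (0.27, adjusted p = 0.0158). The kinase gene Cdc42bpa did not pass (0.11, adjusted p = 0.139). Of these only Tfrc held the strict pattern above in the search of the 10 genes. Cdc14a and Cdc42bpa were not looked up singly, so their place here rests on the list. The call of Cdc14a ended with CEP replicate 3 or DMSO replicate 1 left out, and with DESeq2 (adjusted p = 0.0533, 0.0741 and 0.0591, range over alternatives 0.0143 to 0.0741). Of those listed with the element in the 5′ untranslated region, Ftl1 rose, and Fth1 and Slc40a1 did not pass. The number of listed genes that fell was 2 without CEP replicate 1 and 0 on leaving out any other library.

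Haem synthesis genes went both ways: of 13 listed, 11 were tested, 2 rose, 3 fell and 6 did not pass, with a median log2 fold change of 0.05. Over all genes tested 20.1% rose and 18.2% fell, so going both ways is not particular to this list. Alas1, the gene of the first and rate-limiting enzyme, rose (0.23, adjusted p = 0.0131), a call that ended without DMSO replicate 1 (adjusted p = 0.0727, range over alternatives 0.00949 to 0.0727). Ppox, the gene of protoporphyrinogen oxidase, rose as well (0.67, adjusted p = 0.00284). Alad (-0.24, adjusted p = 0.00800), which encodes an enzyme between those steps, was among those that fell. Alad did not pass without DMSO replicate 3 (adjusted p = 0.058, range over alternatives 5.38e-05 to 0.058), where 1 listed gene fell, and 1 rose without DMSO replicate 1.

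In mitochondria, which use iron for haem and iron-sulfur clusters, 20 of 21 listed genes were tested: 3 rose, 6 fell and 11 did not pass, with a median of -0.09. The importers rose. Slc25a37, which encodes mitoferrin 1, had 318, 424 and 434 CPM in CEP libraries, against 203, 204 and 193 CPM in DMSO libraries (log2 fold change 0.97, adjusted p = 4.63e-04). Slc25a28, which encodes mitoferrin 2, rose by 0.31 (adjusted p = 0.00583). Genes of cluster assembly were among those that fell, with Glrx5, a cluster carrier gene, at -0.42 (adjusted p = 3.97e-04) and Nfs1, which encodes the cysteine desulfurase, at -0.41 (adjusted p = 0.00132). For both importers CEP replicate 1 was the CEP library closest to DMSO. In the cytosolic assembly list 11 of 11 genes were tested, of which 2 fell and 9 were not past the threshold, with a median of 0.07. Ciao2a fell by 0.29 on the log2 scale (adjusted p = 0.00355) and Glrx3 by 0.19 (adjusted p = 0.0302). The call of Glrx3, whose libraries overlapped between the groups, ended when any of CEP replicates 2 and 3 and DMSO replicates 1 and 3 was left out (adjusted p = 0.116, 0.133, 0.0734 and 0.131, range over alternatives 2.40e-06 to 0.133), which left 1 gene that fell in each case, and 1 gene rose without CEP replicate 1.

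Of 15 genes of transcription factors known to act on these genes, and of their regulators, 14 were tested: 8 rose, 1 fell and 5 did not pass, with a median log2 fold change of 0.19. The small Maf proteins pair with NRF2 and BACH1 at antioxidant elements such as those of Hmox1 and the ferritin genes. Mafg had 212, 209 and 219 CPM in CEP libraries, against 139, 144 and 137 CPM in DMSO libraries (log2 fold change 0.61, adjusted p = 2.47e-07). Maff rose by 0.60 (adjusted p = 3.83e-06). So did Bach1, by 0.34 (edgeR adjusted p = 0.00144), and Nfe2l2, the gene of NRF2, by 0.14 (edgeR adjusted p = 0.028). The calls of Bach1 and Nfe2l2 were not followed singly over the alternatives. What part the changes of these factor genes play in the levels of Hmox1 and the ferritin genes was not tested. Keap1, whose product leads NRF2 to degradation, fell by 0.22 on the log2 scale (adjusted p = 0.0114), but did not pass without DMSO replicate 3 (adjusted p = 0.0899, range over alternatives 7.78e-04 to 0.0899). Without that library 5 listed genes rose and 0 fell, and 2 fell without DMSO replicate 1. Over all lists, 98 distinct genes stood beside the 10. Of these 82 were tested, 20 rose, 19 fell and 43 did not pass. Those shares lie near the 20.1% higher and 18.2% lower among all genes tested.

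Levels can be set side by side once divided by exon length. On the scale of CPM per kilobase of the exon length in the table, Fth1 was far above the rest, at 2366 ± 236 in CEP libraries and 2438 ± 30.4 in DMSO libraries (SD, n = 3 each). Ftl1 followed at 290 ± 14.8 in CEP libraries and 222 ± 7.56 in DMSO libraries, and Tfrc at 69.8 ± 0.644 in CEP libraries and 57.9 ± 1.87 in DMSO libraries. Below them, in CEP libraries, came Steap3 at 51.0 ± 4.30, Hmox1 at 36.1 ± 2.13 and Slc11a2 at 35.6 ± 2.01, the last pair within their spread. Ireb2 at 25.1 ± 1.68, Aco1 at 19.6 ± 0.966, Ncoa4 at 13.6 ± 0.984 and Slc40a1 at 0.818 ± 0.0529 CPM per kilobase closed the CEP order. In DMSO libraries the levels per kilobase after Tfrc were 26.3 ± 0.568 for Ireb2, 21.1 ± 0.462 for Hmox1, 20.1 ± 0.400 for Aco1 and 19.8 ± 0.562 for Slc11a2, with Aco1 and Slc11a2 overlapping. Steap3 at 16.7 ± 0.916 and Ncoa4 at 15.9 ± 0.314 CPM per kilobase also overlapped, above Slc40a1 at 1.07 ± 0.253. Steap3 thus stood 4th of the 10 in CEP libraries and 8th in DMSO libraries. The exon length in the table is 1288 bases for Steap3, whereas all its annotated exons together span 5715 bases. With such joint exon lengths Steap3 stood 8th in CEP libraries and 9th in DMSO libraries. In CEP libraries Hmox1, Slc11a2 and Aco1 then stood 4th, 5th and 6th, and in DMSO libraries Hmox1, Aco1, Ireb2 and Ncoa4 stood 4th, 5th, 6th and 8th. The first 3 places and the last were the same with either length, and the order between them depends on the length used, while the fold changes do not.

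Likeness to a gene's pattern was measured as the root mean square difference, over the 6 libraries, in log2 CPM after subtracting each gene's DMSO mean, among 9955 other protein-coding genes averaging 5 CPM or more. Klrg2 (difference 0.022) and Nhlrc3 (0.0269) were closest to Hmox1, with log2 fold changes of 0.78 and 0.76. Hsdl1 (0.0329) and Rell1 (0.0355) were closest to Ftl1, both with a log2 fold change of 0.41. Arhgap12 (0.0136) and Prkd2 (0.0157) were closest to Tfrc, with log2 fold changes of 0.27 and 0.26. With 6 libraries in 2 groups, this measure mostly compares the size of the difference between the groups.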

How the data were processed

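Per the labels' protocols, poly(A) RNA of integrity number above 7 went into stranded libraries, all bulk, although a label calls the source single-cell. The deposited table holds raw whole-number counts per Ensembl gene and an exon length, with positions on GRCm38.p6 per the file headers. The submitters' processing notes list HISAT2, HISAT, HTSeq, DESeq2 and GRCm38. With roles, versions and strand setting not given in the sources used here, overlapping genes could share reads.

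Low counts were filtered (edgeR 4.0.16 filterByExpr, minimum count 10, minimum total 15), libraries TMM-scaled and CEP compared with DMSO by the robust quasi-likelihood test, with Benjamini-Hochberg adjustment over 13405 genes. SE was derived from the F statistic. The test was first tried on simulated counts. No replicates agreed within sampling noise (chi-square per degree of freedom 1.81 to 10.9). Transcripts and joint exon lengths came from GENCODE mouse M21.

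Alternatives were other scalings and filters, DESeq2 1.42.0, limma-voom (limma 3.58.1), a replicate block, leaving out libraries singly and adding ferritin pseudogene counts (R 4.3.3, Python 3.11.15). Of the list genes, 140 matched by symbol and 1 (Skp1a) by an older symbol. Named were all 10 members, their relatives and, per list and direction, up to 2 genes of smallest adjusted p. Blvra, Cdc42bpa, Bach1, Nfe2l2, the named cell type markers and Ftl1-ps1 fall outside that rule and were picked with their values seen. Some genes that the rule names are not reported here. The members and lists were chosen with earlier results of these data known. With 3 libraries a group, their number limits precision.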

Additional observations from a re-analysis of the deposited data

How the results depend on the processing

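The 10 genes gave 142 log2 fold changes over the alternatives, of which 139 kept their direction and side of the threshold, 1 was no longer past it (Ncoa4 without CEP replicate 3), 1 newly passed it (Fth1 without CEP replicate 1) and 1 changed sign. With 1 library left out, the log2 fold change of Fth1 ran from -0.143 to 0.00101, and of the 10 genes 0 to 2 fell. The 5 genes that rose did so under every alternative run: Steap3 from 1.54 to 1.65, Slc11a2 from 0.82 to 0.88, Hmox1 from 0.74 to 0.81, Ftl1 from 0.33 to 0.41 and Tfrc from 0.24 to 0.28. Leaving out 1 library gave 2020 to 3391 genes that rose and 1715 to 3514 that fell, against 2691 and 2434 with all libraries. The highest count in each direction came without CEP replicate 1. Among 29 further genes, 363 of 405 values kept their side of the threshold, 33 lost it and 9 gained it. Of 280 list counts, 37 moved by more than 1.5 times, all of them counts under 10; with no filter on low counts 2 ferritin and 2 transcription factor genes fell and 1 cytosolic assembly gene rose. The cause was not tested. The replicate numbers did not pair the libraries (correlations of same-numbered deviations -0.0421, 0.0304 and -0.0567), and 2 of 6 libraries correlated best with their own number. With the number as a block 2595 genes rose and 2301 fell, 5 and 1 of the 10; Hmox2 was then not past the test (edgeR adjusted p = 0.0658), Blvra was (0.0477), and 1 cytosolic assembly gene rose. Low counts limit Slc40a1, whose value ran from -0.48 to -0.18.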
